A study of Mus musculus with 8 samples.

Results

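The SR protein and hnRNP genes are 37 genes for RNA-binding proteins that bind pre-mRNA and set its splicing, export and turnover. They are 13 genes for SR proteins and their TRA2 relatives, 4 for SR-related proteins and 20 for hnRNPs, out of 21951 protein-coding genes. Their binding by RBM45, an RNA-binding protein with several RNA recognition motifs, was read from crosslinking and immunoprecipitation (iCLIP) peaks. A peak was counted to a gene where its midpoint lay in the gene's body on the same strand, by the GENCODE M21 annotation of mm10. In all, 307 of 731580 distinct peak intervals met that rule, 184 from replicate 1 and 123 from replicate 2. Every one of the 37 genes held at least 1. Peaks in both replicates stood in 30 of the 37, and in 14290 of all 21951 protein-coding genes.

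The cells were mHippoE-2, a transformed line of hippocampal neurons from mice of strain Crl:CFW(SW)-024, and all of them carried a lentivirus for mouse RBM45 with FLAG and HA tags, so that the tagged protein and not the cells' own RBM45 was pulled down. The 8 libraries of the series fall into 4 groups of 2: WT CLIP with an antibody against HA, WT size-matched input without antibody, and the same pair from Mettl3 KO cells, which lack the catalytic subunit of the m6A methyltransferase complex. The stated purpose of the series was to profile RBM45 sites with and without m6A. UV light, as 2 doses of 150 mJ/cm2, is stated in the labels of the Mettl3 KO samples alone.

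The values below come from WT CLIP replicates 1 and 2, and from the list of peaks that the authors paired between them. Replicate 1 held 387749 distinct peaks and replicate 2 held 344700, and 16399 pairs made up the shared list. The number of reads per library is unknown and the level of each gene's RNA is not among the values used, so that more binding and more RNA cannot be told apart. The labels do not say whether the replicates were separate cultures. Markers of each cell type tried held peaks: 9 of 10 neuron markers held them in both replicates (Nefl had none), as did 3 of 5 neural progenitor, 4 of 5 astrocyte, 3 of 5 oligodendrocyte, 4 of 5 microglia and 3 of 5 endothelium markers. A peak is not a measure of expression, so the label was not checked further. The sources used here do not give how a peak's strand was assigned: 16 of the 307 intervals stand on both strands, and 26 lie under a gene of the other strand.

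SR proteins carry a domain rich in arginine and serine, bind enhancer sequences in exons and help the splicing machinery to recognise them, while many hnRNPs bind silencer sequences and have the opposite effect. Genes of both families are known to control their own amounts. The protein promotes the inclusion of a poison exon, which brings an early stop codon and sends the mRNA to nonsense-mediated decay, or the retention of an intron, which holds the transcript in the nucleus. Poison exon segments here are exon sequence of annotated nonsense-mediated decay transcripts, and retained intron segments are exon sequence of annotated retained-intron transcripts, both outside the exons of the gene's protein-coding transcripts in the basic set.

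Sequences are shown for sites found in both replicates, since the results below turn on them. There were 16 such pairs, and sequence could be read for 10, where a GENCODE M21 transcript covers the interval. Each sequence is the stretch common to both replicates, 5′ to 3′ on the RNA strand with T for U, cut to the middle 30 bases where it lies in a 3′ UTR and is longer, and to the annotated part in the Srrm2 intron 12 site. Capitals mark GAC, the triplet that RBM45 is known to bind. In mm10 they are, in order, chr13:58127012-58127041 (minus), chr17:23824383-23824411 (plus), chr17:23812309-23812336 (plus), chr11:116851168-116851196 (minus), chr17:23823525-23823566 (plus), chr6:86524535-86524564 (minus), chr6:51462085-51462109 (minus), chr17:23817501-23817529 (plus), chr11:116850779-116850808 (minus) and chr4:131901633-131901662 (plus).
Hnrnpa0 3′ UTR: taagGACttgatacctggctacagcgtttt
Srrm2 3′ UTR: ttttttggttcctgtgaaatgttgatctc
Srrm2 intron 9: ttttggaaaaaaaaggttgtacatacag
Srsf2 intron 2: tttggtcttggttatttggccaagaatca
Srrm2 intron 12: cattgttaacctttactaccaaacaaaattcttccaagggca
Pcbp1 3′ UTR: atgttaataaatttcagtttagttctgtaa
Hnrnpa2b1 retained intron: tccatgaagattcaggtgcttaaca
Srrm2 exon 11: attcaagaggatgttgcatcatcttgtat
Srsf2 3′ UTR: caggtggcaaacttcattttatgtgccatt
Srsf4 3′ UTR: tttccccgtcttgcaaagtatagtGACccc

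GAC was present in 2 of these 10 sequences, Hnrnpa0 and Srsf4. In Hnrnpa0 it is part of GGACT, a form of the sequence in which m6A is commonly found. The Srrm2 3′ UTR site starts with a run of U. The Pcbp1 site holds AATAAA, the sequence of the common polyadenylation signal. Its peaks lie 59 and 60 nt before the transcript's end, and use of AATAAA as a signal there was not tested. Over 30-base windows at the midpoint of all 130 member peaks whose sequence could be read, 25.4% held GAC on the RNA strand, against 31.3% of 79592 such windows in protein-coding genes. GGACT, which contains GAC, was in 5.38% against 2.74%, TTTTT in 15.4% against 6.18% and AATAAA in 6.92% against 2.08%. For GAC the replicates differed, with 15 of 72 windows in replicate 1 and 18 of 58 in replicate 2. For TTTTT they were alike, with 12 and 8 windows. These windows come from annotated transcripts, so most introns are missing from them. They were not matched for region. Members had more peaks in 3′ UTRs (50) than in coding sequence (29), and protein-coding genes had fewer (27982 and 32371). A site found in both replicates counts once for each. The shares thus cannot be read as a difference in the sequence that is bound.

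Shared peaks stood in 10 of the 37 genes. Srrm2 had 4, Srsf2, Srek1 and Hnrnpl had 2 each, and Srsf4, Hnrnpa0, Hnrnpa2b1, Hnrnpul1, Pcbp1 and Pcbp2 had 1 each, while 27 genes had none. With a −log10 p of at least 4 in both replicates the count was 6, without Srsf4, Srek1, Hnrnpul1 and Hnrnpa2b1. By family, 2 of 13 SR and TRA2 genes, 2 of 4 SR-related genes and 6 of 20 hnRNP genes held a shared peak. Of the 30 members with peaks in both replicates 10 held one (33.3%, Wilson 95% interval 19.2% to 51.2%), against 41% of 14290 protein-coding genes with peaks in both. Long genes hold more peaks, and the members are short, with a median span of 16.7 kb against 29.8 kb. Among those under 10 kb, 4 of 8 members held a shared peak (background 20.5%), from 10 to 30 kb 3 of 12 did (background 31.3%), and over 30 kb 3 of 10 did (background 54.6%). The intervals of these shares are wide, at 21.5% to 78.5% for the shortest class, and cover counting error only.

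A larger share of single peaks recurred than over all protein-coding genes. Of the 123 replicate 2 peaks in members, 18 overlapped a replicate 1 peak by at least 1 bp (14.6%, Wilson 95% interval 9.46% to 21.9%), where the background was 7.97%. Without Srrm2, the gene with the most shared peaks, the share was 13.2% of 106 peaks. Within 100 nt of a replicate 1 peak lay 31 of the 123 (25.2%, 18.4% to 33.5%), and the background of 21.2% is inside that interval. Peaks of 1 gene share its RNA level and are not independent, so these intervals are too narrow.

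**Figure D1:**
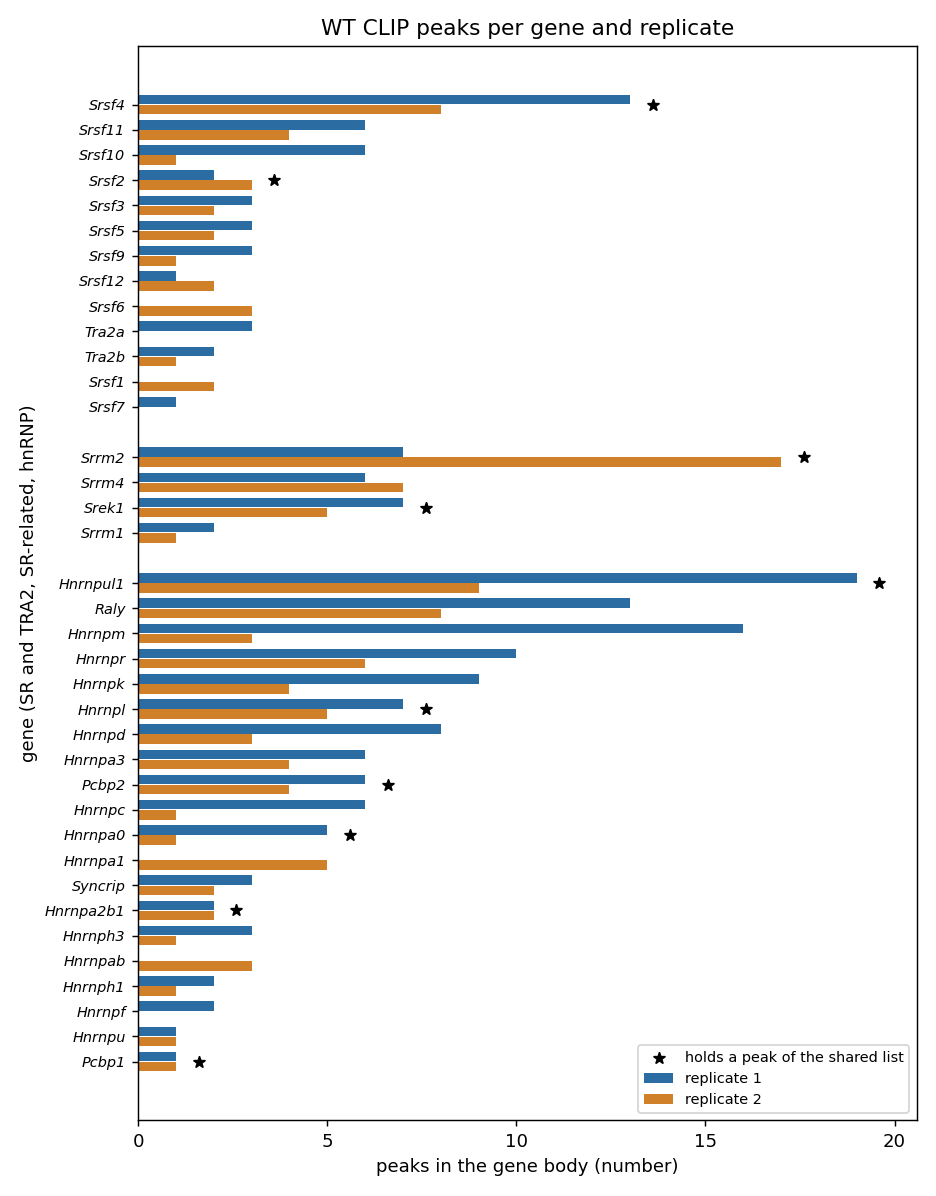
Number of WT CLIP peaks in the body of each of the 37 genes (x axis) in replicate 1 (blue) and replicate 2 (orange), grouped on the y axis as SR and TRA2, SR-related and hnRNP genes. Stars mark the 10 genes with a peak of the shared list: Hnrnpul1 had the most peaks, 19 and 9, and Srrm2 was the gene with the largest excess in replicate 2, 7 and 17.

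Peaks in these genes were few for their length but high. They held 0.351 distinct peaks per kb of gene body, and all protein-coding genes held 0.677. The fold of a peak is the authors' own value, the ratio of its pileup to the background that the peak caller estimated. Its median was 3.17 in replicate 1 and 3.25 in replicate 2 for member peaks, against 1.93 and 1.92 over protein-coding genes. In replicate 2 the protein-coding median was also the fold of each Srrm4 and Srsf12 peak, all of them 30 nt wide, the least width. The medians are thus set against a background made up largely of peaks of least width. A fold of at least 5 was reached by 13 of 184 member peaks in replicate 1 (7.07%, 4.18% to 11.7%) with a background of 0.94%, and by 10 of 123 in replicate 2 (8.13%, 4.48% to 14.3%) with a background of 0.731%. Fewer member peaks had the least width of 30 nt, 70.7% and 46.3% in replicates 1 and 2, against 83.9% and 83.2%. The amount of RNA from each gene was not measured in the values used, and its part in these differences was not tested.

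In 7 genes peaks came from 1 replicate. Srsf1, Srsf6, Hnrnpa1 and Hnrnpab had none in replicate 1, and 2, 3, 5 and 3 in replicate 2. Srsf7, Tra2a and Hnrnpf had none in replicate 2, and 1, 3 and 2 in replicate 1. Across the 37 genes, Spearman's rho of the peak numbers in the replicates was 0.56, a description over genes that share 2 libraries.

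Among the SR proteins, Srsf2 (also known as SC35), which binds exonic enhancers and marks nuclear speckles, had the lowest p of all member peaks. All 5 of its peaks lay in its last intron or its 3′ UTR. The intron 2 site, on sequence that the retained-intron transcript Srsf2-203 keeps, had a fold of 4.69 in replicate 1 and 8.69 in replicate 2, with −log10 p of 6.72 and 22.3. In the 3′ UTR the order was the other way, 5.58 in replicate 1 and 2.36 in replicate 2. That site lay 171 and 174 nt after the stop codon by the midpoints of the 2 peaks. Another peak, of replicate 2 alone, stood further 5′ in the same intron with a fold of 2.96. All 5 intervals also lie under Mettl23, which runs along the other strand, so their RNA cannot be told apart without the reads' strand.

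Srsf4, an SR protein of the larger kind, had 21 peaks, 13 in replicate 1 and 8 in replicate 2. The shared one lay at the very end of its 3′ UTR, 60 and 45 nt before the transcript's end, with a fold of 6.86 in replicate 1 and 2.49 in replicate 2. It is listed on both strands, as are 5 of the 21 peaks, under Gm12992. Intron 1 held 10 peaks, 8 of replicate 1 and 2 of replicate 2, with folds from 2.37 to 4.28, and none of them was shared.

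Every peak in Srsf3 lay in a retained intron, and such segments cover 5265 of the gene's 10746 nt. Srsf3 is the smallest SR protein and is known to act on its own poison exon. Its 5 peaks, 3 in replicate 1 with folds of 3.75, 4.20 and 4.28 and 2 in replicate 2 with folds of 3.94 and 3.73, were in introns 1, 3 and 4 of 5. None overlapped between replicates. The poison exon is 456 nt long (chr17:29039454-29039909), and a replicate 1 peak of fold 4.20 ended 7 nt before it, while the nearest replicate 2 peak lay 1096 nt away.

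Srsf5, which acts in constitutive and alternative splicing, had 3 of 5 peaks on retained introns, which cover 2332 of its 5004 nt. In intron 5 a replicate 1 peak (chr12:80948086-80948139, fold 2.60) and a replicate 2 peak (chr12:80948055-80948093, fold 3.05) met at their edges. The overlap was less than 50% of the replicate 2 peak, and the pair is not in the authors' shared list. Srsf11, another SR-rich splicing factor, had 4 of 10 peaks on such segments, 2 in each replicate. The one in intron 3 of replicate 2, with a fold of 3.88, covered 17 nt of a 109 nt poison exon (chr3:158024123-158024231).

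Of the other SR and TRA2 genes none held a shared peak. Srsf10, a splicing repressor when dephosphorylated, had 6 peaks in replicate 1 and 1 in replicate 2, with the highest fold, 5.47, in its 3′ UTR. Srsf9 had 3 and 1, and a replicate 1 peak lay in a poison exon of Srsf9-205 at a fold of 2.70. Tra2a and Tra2b, activators of exons with GA-rich enhancers, had 3 peaks each, with folds up to 3.50 and 3.95 and none on the poison exons annotated in them. Srsf1, the founding SR protein, had 2 peaks with folds of 4.21 and 2.43. Both are classed as 3′ UTR by another basic transcript and lie in intron 4 of 4 of the reference transcript Srsf1-202. Srsf12 had 3 of folds up to 1.95, close to the median over protein-coding genes.

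Srrm2, the large scaffold protein of nuclear speckles, had the most sites of the SR-related genes and 4 of the 16 shared pairs. Of its 24 peaks 7 came from replicate 1 and 17 from replicate 2. The shared 3′ UTR site had folds of 6.10 and 5.10 in replicates 1 and 2. The intron 9 site, kept in the retained-intron transcript Srrm2-207, had folds of 5.11 and 4.13. Replicate 1 was the higher one at both sites.

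In intron 12 of Srrm2, kept in part by Srrm2-209, the shared site had folds of 4.54 in replicate 1 and 8.81 in replicate 2, the second highest of all member peaks. Just 5′ of it a replicate 2 peak reached 7.52 and had no partner. The intron held 7 peaks, 3 and 4 by replicate, over chr17:23822867-23823605. The fourth shared site lay in exon 11, which holds most of the coding sequence, with folds of 3.29 and 3.55. That exon had 9 peaks in replicate 2 and 1 in replicate 1, and Srrm2 alone gave 10 of the 21 coding-sequence peaks that members had in replicate 2.

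Srek1, a regulator that binds other SR proteins, had a cluster in intron 9 of 11. There 6 peaks of replicate 1 and 3 of replicate 2 lay within chr13:103749607-103750853. The shared pairs were at chr13:103749800-103749824, with folds of 3.12 and 4.44, and chr13:103750546-103750567, with folds of 6.49 and 3.05. A replicate 1 peak between them had a fold of 6.47 and no partner. The nearest annotated exon of any kind lay 673 and 1419 nt from the shared sites, so neither is on a poison exon or retained intron. Srrm4, the neuronal activator of microexons, had 13 peaks over its 153 kb, all with the same low fold in each replicate, 1.95 and 1.92. Of these, 6 are listed on both strands under Srrm4os. Srrm1 had 3 peaks of folds up to 2.38.

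**Figure D2:**
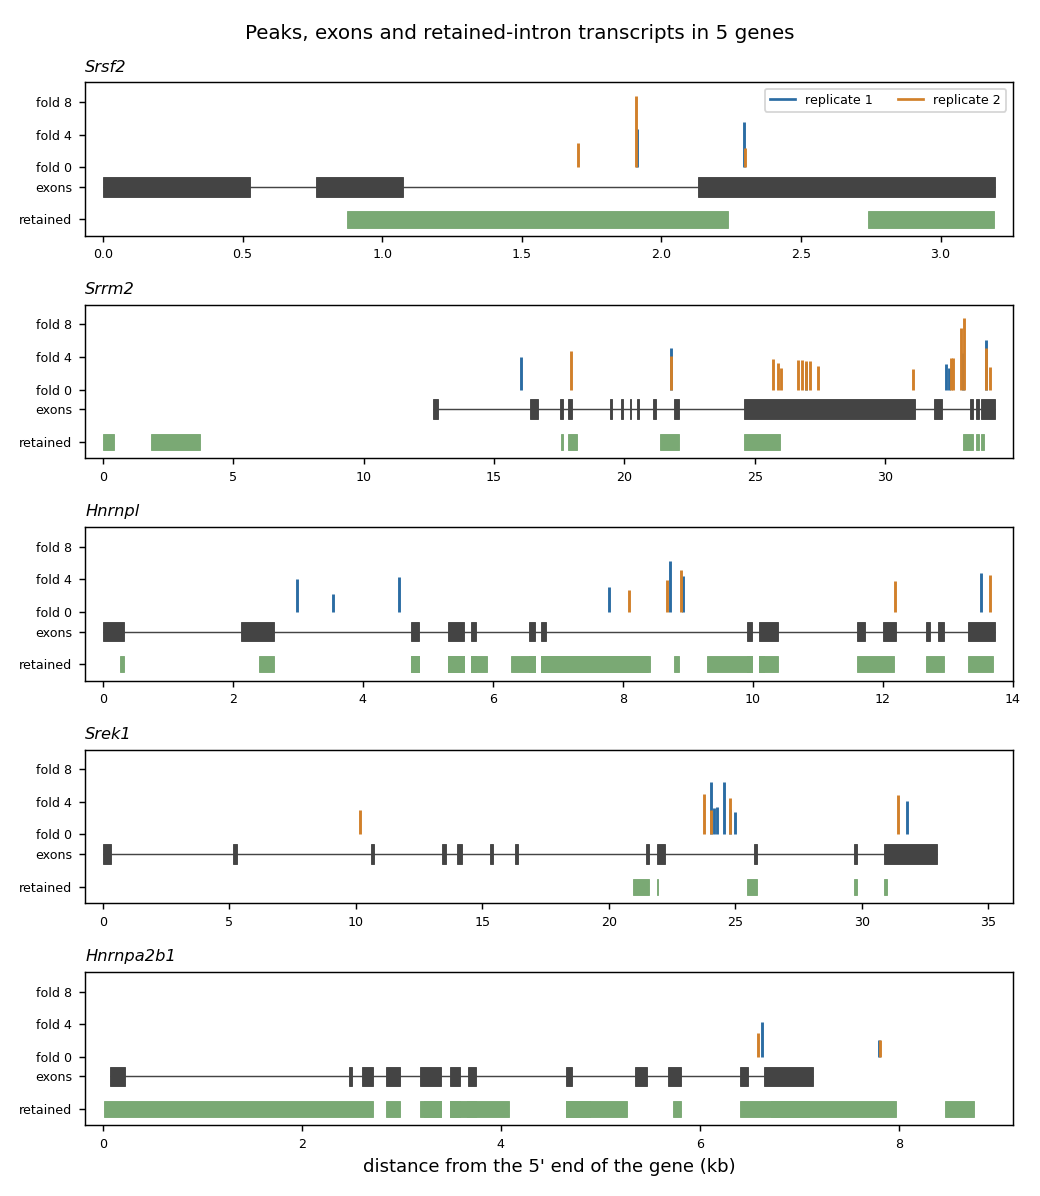
Peaks along 5 genes, with the distance from the gene's 5′ end in kb on the x axis and fold as the height of the lines (blue replicate 1, orange replicate 2) above the exons of the reference transcript (dark) and the exons of retained-intron transcripts (green). The lines of both replicates fall together in the last intron of Srsf2, in intron 12 and the 3′ UTR of Srrm2, in intron 7 of Hnrnpl, in intron 9 of Srek1 and at the 3′ end of Hnrnpa2b1.

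Among the hnRNP genes, Hnrnpl was the gene whose poison exon had peaks beside it in both replicates. hnRNP L binds CA repeats and is known to repress its own expression through a poison exon. That exon of Hnrnpl-213 (chr7:28817335-28817404, plus strand, 70 nt, in intron 7 of 13 of the reference transcript Hnrnpl-211) is shown because shared peaks flank it.
Hnrnpl poison exon: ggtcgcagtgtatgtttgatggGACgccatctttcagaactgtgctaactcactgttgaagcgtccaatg

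Upstream, the shared pair had a fold of 6.24 in replicate 1 and 3.91 in replicate 2, and the replicate 1 peak, 147 nt wide, ran 12 nt into the exon. Downstream, the pair had folds of 4.46 and 5.15, and the replicate 2 peak covered the exon's last 6 nt. The stretches common to both replicates lay 88 nt before the exon and 25 nt after it, and neither midpoint was in the exon. The exon's 70 nt are also exon sequence of annotated retained-intron transcripts, so the annotation there is not of a poison exon alone. Of 33 poison segments in 18 of the genes this was the only one with a peak within 100 nt in both replicates, against 4 segments in replicate 1 and 5 in replicate 2. It was singled out after its values were seen. Hnrnpl also had a 3′ UTR peak in each replicate, 4.77 and 4.55, with a gap of 89 nt between them.

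Pcbp2 and Pcbp1 encode poly(C)-binding proteins that act in splicing, mRNA stability and translation. Pcbp2 had the highest fold of all 307 peaks, 9.80 in replicate 1, for a peak 132 nt wide in the first intron of transcripts that start upstream of the reference one (chr15:102471543-102471582 in common). Its replicate 2 partner had a fold of 3.40, so the replicates differed widely in height at 1 site. The non-coding gene Gm26518 lies on the other strand there. Pcbp1, which has no intron, had 1 peak in each replicate and they coincided, with folds of 3.87 and 3.94, at 59 and 60 nt before the transcript's end. In Pcbp2 a replicate 1 peak also lay 43 nt before the end, with a fold of 3.66 and no replicate 2 partner.

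Hnrnpa0, an hnRNP A/B protein that binds AU-rich mRNA and whose gene has a single exon, had 6 peaks, all in its 3′ UTR of 1517 nt. The shared one lay 369 and 368 nt after the stop codon, with folds of 6.44 in replicate 1 and 5.20 in replicate 2. The other 4 were of replicate 1, with folds from 2.51 to 3.77. It had the highest density of all members, 2.24 peaks per kb.

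Hnrnpa2b1, which acts in splicing and in RNA transport in neurons, had 4 peaks, all on retained introns, which cover 4150 of its 8963 nt. The shared pair, on Hnrnpa2b1-211, was the weakest by fold of the 16, 2.07 and 2.11. In intron 11 a replicate 1 peak of fold 4.24 and a replicate 2 peak of fold 2.96 stood 9 nt apart. Hnrnpul1, an hnRNP U-like protein with a part in the DNA damage response, had the most peaks, 28. Its shared pair in intron 10 of 14 (chr7:25727402-25727430) had folds of 3.42 and 4.61. In its intron 8 the peaks of the replicates touched by a few bases, with a fold of 5.86 for that of replicate 1, and are not in the shared list.

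Hnrnpk, a poly(C)-binding regulator of transcription and splicing, had 13 peaks and none was shared. Of these 6 lay on retained introns, 4 in replicate 1 and 2 in replicate 2, with folds from 3.18 to 4.51. The replicates came close to each other, with gaps of 3 and 4 nt in introns 6 and 7. Hnrnpa3, a close relative of Hnrnpa2b1, also had close peaks that did not overlap, in intron 4, where 3 peaks of replicate 1 and 2 of replicate 2 lay within chr2:75662109-75662497. Their folds reached 5.60 in replicate 1 and 5.57 in replicate 2. Both replicate 2 peaks lay nearest to the same replicate 1 peak, with gaps of 16 and 18 nt. That peak had a fold of 2.40 and is not the one of fold 5.60.

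Hnrnpu, the nuclear scaffold hnRNP, had 1 peak in each replicate at different places. The one of replicate 2, in intron 1 on Hnrnpu-202, had a fold of 7.35, the fifth highest of all, and replicate 1 had none there. Raly, an hnRNP C relative, had 21 peaks, all intronic, of which intron 2 held 5 of each replicate, and none overlapped. All 21 also lie under the neighbouring gene a on the same strand. Hnrnpm, which binds GU-rich sequence, had 16 peaks in replicate 1 and 3 in replicate 2, and Hnrnpr, a relative of Syncrip, had 10 and 6, with no overlap in either gene.

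The remaining hnRNP genes held no shared peak. Hnrnpc, which binds U tracts, had 6 and 1 peaks, all intronic, and Hnrnpd (AUF1), which binds AU-rich mRNA, had 8 and 3, of which 5 of replicate 1 lay in the 3′ UTR. Hnrnpa1, a splicing silencer, had 5 peaks in replicate 2 alone, 2 of them on segments of nonsense-mediated decay transcripts past its usual last exon. Hnrnpab, Hnrnpf, Hnrnph1, Hnrnph3 and Syncrip had from 2 to 5 peaks each.

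**Figure D3:**
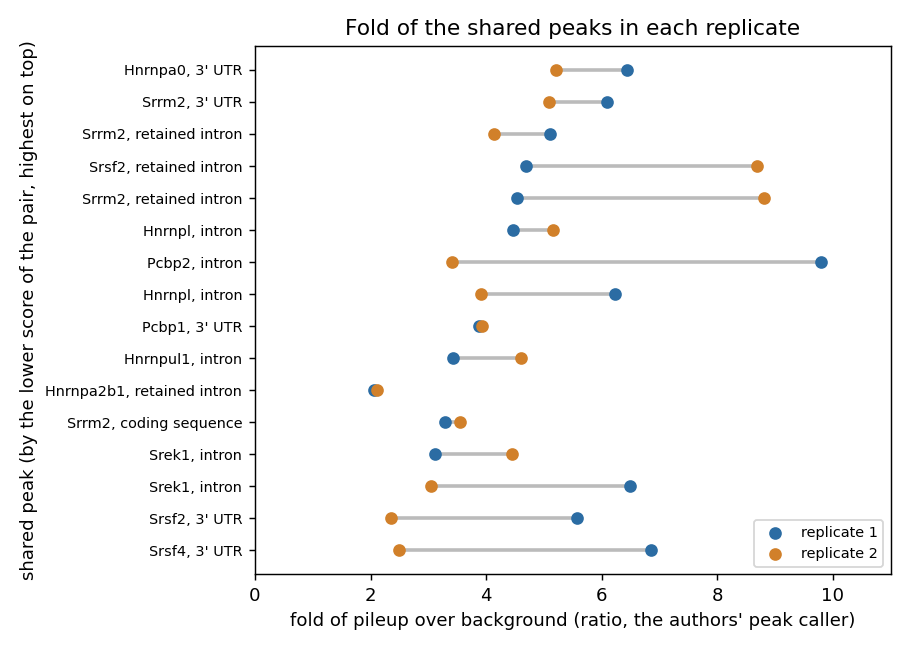
Fold of each of the 16 shared peaks in replicate 1 (blue) and replicate 2 (orange) on the x axis, joined by a line, with the gene and region on the y axis, ordered by the lower of the pair's peak caller scores. Replicate 1 was higher in 8 pairs and replicate 2 in 8, and the longest lines belong to Pcbp2 (9.80 and 3.40), Srsf4 (6.86 and 2.49) and Srrm2 intron 12 (4.54 and 8.81).

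Over the 16 shared pairs the median fold was 4.90 in replicate 1 and 4.03 in replicate 2, and neither replicate was higher throughout. Of the sites 10 were intronic (62.5%), 5 lay in 3′ UTRs (31.2%, Wilson 95% interval 14.2% to 55.6%) and 1 in coding sequence (6.25%). Over the shared list in protein-coding genes these shares were 89.4%, 5.96% and 4.05%. On retained introns lay 4, in Srrm2 (introns 9 and 12), Srsf2 and Hnrnpa2b1, and none had its midpoint in a poison exon. The member peaks without a partner in the list had a median fold of 3.11 over 168 in replicate 1 and 3.19 over 107 in replicate 2. Values of up to 7.52 among them show that a high fold in 1 replicate did not ensure a partner.

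Member peaks lay in exons more often than peaks in general. Of the 307, 87 were exonic (28.3%, Wilson 95% interval 23.6% to 33.6%), where the background was 8.8%. The bodies of these genes are also richer in exons, which cover 18.5% of them against 6.98% of all protein-coding bodies. Per kb, exons held 1.74 times as many peaks as introns in members and 1.29 times in protein-coding genes. Both ratios pool all bodies of a set, so they also reflect which genes hold the peaks. Exons and introns held 0.472 and 0.399 peaks per kb in hnRNP genes. In SR and TRA2 genes they held 0.566 and 0.358, and in SR-related genes 0.729 and 0.141. Hnrnpa0 and Pcbp1 have no intron, so their peaks can only be exonic. A ratio within genes was not computed. Without Srrm2 the exonic share was 25.8%. The 3′ UTR held 50 peaks (16.3%), coding sequence 29 (9.45%) and the 5′ UTR 8 (2.61%). These regions cover 10.5%, 6.26% and 1.70% of the members' bodies, and over protein-coding genes they held 3.85%, 4.45% and 0.50% of peaks. With region classes from the comprehensive set, which count retained introns as exons, the exonic share was 44.3%, against 11.9% over protein-coding genes.

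The replicates differed in which exons were hit. Of the 50 peaks in 3′ UTRs 36 came from replicate 1 and 14 from replicate 2. That was 19.6% of the peaks of replicate 1 and 11.4% (6.90% to 18.2%) of those of replicate 2, the second close to the 10.5% of the bodies. In 5′ UTRs replicate 1 had 7 and replicate 2 had 1, while of the 29 in coding sequence 8 came from replicate 1 and 21 from replicate 2. Without Srrm2 the coding-sequence numbers were 7 and 11. By family, 30.6% of 72 peaks were exonic in SR and TRA2 genes, 38.5% of 52 in SR-related and 24.6% of 183 in hnRNP genes. The exons covered 21.8%, 10.8% and 21.6% of their bodies. Of the 20 exonic peaks in SR-related genes 14 were in Srrm2.

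Retained introns and poison exons held 44 of the 307 peaks (14.3%, 10.9% to 18.7%), with a background of 2.58%. Such a peak stood in 17 of the 29 members that have these segments, and in 5246 of 10032 protein-coding genes that have them. These segments cover 7.07% of the members' bodies and 1.65% of protein-coding bodies. Per kb the segments held 2.20 times as many peaks as the rest of the body in members and 1.58 times in protein-coding genes. These ratios also pool all bodies of a set. Long members weigh on the rest of the body: such segments cover 986 nt of Srrm4 (153 kb) and none of Raly (76.2 kb). A ratio within genes was not computed, so the 2 values cannot be read as a difference in placement. Retained introns made up 40 of the 44 peaks and poison exon segments 5, with 1 peak of Srsf11 in both. Of these 5, those of Hnrnpa1, Hnrnpd and Srsf9 are classed as 3′ UTR by the comprehensive set. Of the 33 poison exon segments in members 25 are whole exons. The segments under the Hnrnpd peak (232 nt) and 1 of the Hnrnpa1 peaks (1011 nt) are not. Each replicate gave 22 of the 44. Of the peaks on poison exon segments 1 came from replicate 1 (0.54% of its peaks) and 4 from replicate 2 (3.25%), with 0.17% over protein-coding genes. Poison exon segments cover 0.79% of the members' bodies and 0.14% of protein-coding bodies. Per kb they held 0.721 peaks in members and 0.824 in protein-coding genes. By family the 44 peaks were 17 in SR and TRA2 genes, 5 in SR-related genes and 22 in hnRNP genes. Those with such peaks in both replicates were Srsf2, Srsf3, Srsf5, Srsf11, Srrm2, Hnrnpa2b1, Hnrnpk and Hnrnpl.

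**Figure D4:**
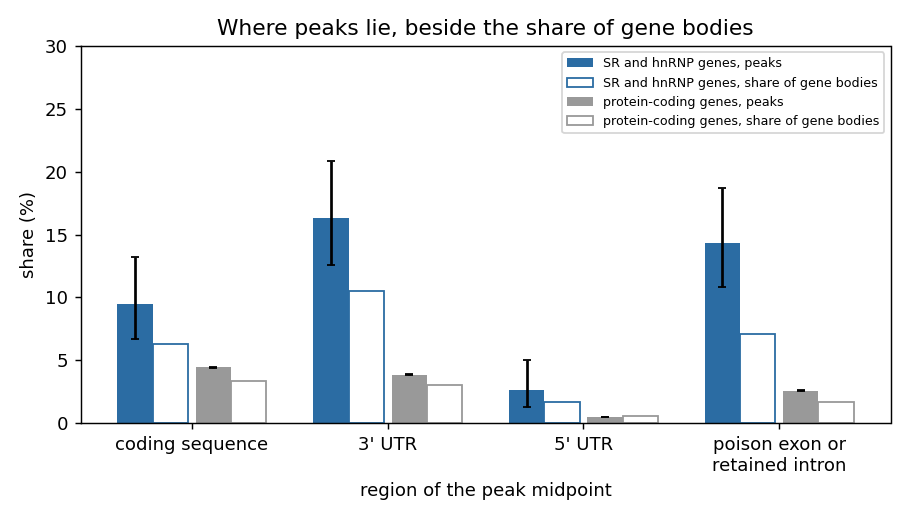
Share of peaks (filled bars, with Wilson 95% intervals) and share of gene bodies (open bars) by region on the x axis, for the 37 genes (blue) and all protein-coding genes (grey), in percent on the y axis. In the 37 genes the 3′ UTR held 16.3% of peaks and poison exons or retained introns 14.3%, each above the share of the bodies that they cover; for the 3′ UTR this was so in replicate 1 (19.6%), while replicate 2 (11.4%) was near the share of the bodies (10.5%).

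The other genes of the pathway were taken as 40 genes of the core spliceosome and the kinases that phosphorylate SR proteins. Of these 38 held peaks in both replicates and 13 held a shared peak (34.2%), against 41% over protein-coding genes. Among the 13 were the kinases Clk2, Srpk1 and Srpk2 and the 3′ splice site factor U2af1. Of the 986 peaks of all 40 genes 17.5% were exonic and 8.42% lay on poison exons or retained introns. Those shares are below the 28.3% and 14.3% of the SR protein and hnRNP genes and above the backgrounds of 8.8% and 2.58%. How much of these 40 genes' bodies exons and such segments cover was not computed, so the shares cannot be read as differences in binding. The difference between these lists was not tested, since peaks of 1 gene are not replicates.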

How the data were processed

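Peak lists of WT CLIP replicates 1 and 2 (mHippoE-2 cells) were used. The submitters' processing notes name deepTools 3.2.1, HOMER 4.11.1, bedtools 2.25.0, MACS2 2.1.1.20160309 and Novoalign 3.09.00 and the build mm10. The sources used here do not give whether input was the peak caller's control. Per the peak names in the files, peaks were called per library at a p threshold of 0.005. The authors deposited for each peak a score (10 times the −log10 p, rounded down), a fold (the ratio of pileup to background) and the −log10 p. The authors' shared list pairs peaks that overlap by at least 50% of the replicate 2 peak; its values were taken from the replicate lists. Repeated lines (267229 of 654978 and 237090 of 581790) were removed.

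Peaks were placed by midpoint on GENCODE M21: regions from the basic set in the order coding sequence, 3′ UTR, 5′ UTR, non-coding exon, intron, and poison exon and retained intron segments from the comprehensive set. The reference transcript is the basic protein-coding one with the longest coding sequence. Regions use every basic transcript. A peak classed as 3′ UTR can thus lie in an intron of the reference transcript, as in Srsf1 and Hnrnpk. No test was run: shares carry Wilson 95% intervals, which cover counting error only, beside the same over protein-coding genes. Sequence came from GENCODE M21 transcripts; a genome was not used here. The members and lists were chosen with earlier results of these data known. Named with values were the members with a shared peak, the 10 with the most peaks, the 10 highest folds and those with poison exon or retained intron peaks in both replicates; the rest are given briefly. Interval functions were tested on simulated data.

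Counts of reads in the shared peaks were deposited too (featureCounts 1.6.3, per the file headers). The table has 8 library columns, as has its summary; these 16 per-sample columns match no sample's labels and were not used, so the planned comparison of Mettl3 KO with WT was not run. Values were computed with pandas 2.3.3, numpy 2.4.6 and scipy 1.17.1 and drawn with matplotlib 3.10.9, in Python 3.11.15. Alternatives were other overlap rules, a −log10 p of at least 4, other ways of placing peaks, and leaving out each replicate.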

Additional observations from a re-analysis of the deposited data

How the results depend on the processing

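Of 4 results with alternatives, 3 values moved. With a −log10 p of at least 4 in both replicates, 6 members held a shared peak in place of 10: Hnrnpa0, Srrm2, Srsf2, Hnrnpl, Pcbp2 and Pcbp1. At the same limit the share of peaks on poison exons or retained introns was 19.55%, against 3.16% over protein-coding genes. With region classes from the comprehensive set the exonic share was 44.3%, against 11.9%, where retained introns and poison exons count as exons by construction. Without either replicate, the exonic share ranged from 27.72% to 29.27% and the share on poison exons or retained introns from 11.96% to 17.89%. The share of replicate 2 peaks that overlapped ranged from 11.38% to 15.52% over its alternatives; over protein-coding genes it was 4.005% at 50% of each peak, 4.82% at 50% of the replicate 2 peak and 7.95% at a −log10 p of at least 4. No paired analysis was possible because the peak lists gave no test between groups and the count table's columns match no label; its alternatives were not run. Depth is unknown, 2 replicates bound every statement, and strand could come from the annotation.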
